A study of Mus musculus with 6 samples.

Results

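The metalloproteinases are a set of 65 genes among the 18193 measured on mouse arrays in RNA from 2 regions of the femoral shaft. They were chosen by gene symbol alone and comprise 18 matrix metalloproteinases (Mmp), 4 tissue inhibitors of metalloproteinases (Timp), 28 ADAM genes and 15 ADAMTS genes. The rule uses no measured value, but it was set with earlier results of these data known. All animals were male C57BL/6 mice aged 8 weeks that had received saline by intraperitoneal injection, so both groups share strain, sex, age and injection. Femurs of 3 mice were cleaned of muscle and periosteum, the metaphyses were cut off, and the shaft was flushed. The flushed cells were pelleted before lysis and gave the central RNA. Lysis reagent passed through the emptied shaft gave the endosteal RNA, which represents the material left on the inside of the bone. Only the flushed cells were spun down before lysis, so region and handling cannot be told apart. There was 1 array for each region of each replicate, that is 3 central and 3 endosteal arrays labelled A, B and C, and the study compared the regions to describe the haematopoietic stem cell niche at the endosteum.

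Matrix metalloproteinases are zinc-dependent enzymes that are made as inactive precursors and cut collagens, gelatin and other matrix proteins outside the cell. ADAM proteins are mostly anchored in the membrane and release the outer parts of other membrane proteins, whereas ADAMTS proteins are secreted and cut proteoglycans, procollagens and other matrix proteins. TIMP proteins bind and block the active enzymes. In bone, collagenase and gelatinase activity takes part in matrix turnover, and neutrophils of the marrow store matrix metalloproteinases in their granules.

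The values are probe set signals on a linear scale, and each of the 6 arrays had a mean of 500.003 after 2% of probe sets were trimmed at each end. The median signal was 97.2 to 106 on the central arrays and 120 to 131 on the endosteal arrays. Each array had 15.9% to 20.1% of its probe sets below a signal of 16. The number of arrays limits the precision. Of 5 measured osteoblast markers 4 were higher in endosteal RNA, and the summed signal of the 5 was 1541 to 1978 on central and 61131 to 74981 on endosteal arrays. Col1a1 and Col1a2 made up most of the endosteal sum, with mean signals of 20221 and 37317. Mean signals rose from 835 to 8228 for Ibsp and from 96.3 to 511 for Alpl. Sp7, with means of 110 and 340, was not called (adjusted p = 0.0663). All 9 skeletal muscle markers were higher too, with a summed signal of 779 to 1168 on central and 58288 to 118525 on endosteal arrays. With a block for the array letter, explained below, 3 of the osteoblast and 8 of the muscle markers were still called, and the calls of Alpl (adjusted p = 0.0733) and Myh1 (adjusted p = 0.0521) ended.

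Signals were compared as log2(signal + 16), so a change below is the endosteal minus the central mean on that scale, and it understates the change of dim genes. A gene was called when its Benjamini-Hochberg adjusted p from limma's two-sided test, adjusted over all 18193 genes, was under 0.05. By this rule 9 metalloproteinase genes were higher in endosteal RNA, which is 13.8% of 65, against 7.74% of all genes. A further 5 were lower, which is 7.69%, against 3.97% of all genes. The background depended on the scaling: 1409 genes were called higher and 723 lower on the deposited scale, 941 and 1975 with each array centred on its median, and 998 and 830 after quantile normalization. The metalloproteinase counts were 8 higher and 5 lower under both of those scalings. With median centring 5.17% of all genes were called higher and 10.9% lower, so the 5 lower (7.69%) were below that share. After quantile normalization the shares of all genes were 5.49% and 4.56%. The genes that rose were Mmp13, Timp1, Mmp2, Adam12, Timp3, Adamts5, Mmp14, Mmp24 and Adam9. Those that fell were Adam8, Mmp9, Adam19, Mmp8 and Mmp11. The median change over the 65 genes was 0.58, beside 0.10 over all genes, and single changes ran from -1.41 to 5.38. Signal level divided the set. The median change was -0.16 in the 15 genes with a mean log2 signal above the median of all genes. It was 0.60 in the 50 dimmer genes. In 17 genes every endosteal array lay above every central array, which is 26.2% of the 65 and 22.1% of all genes. In 7 genes every endosteal array lay below every central array, which is 10.8% of the 65 and 15.4% of all genes.

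**Figure D1:**
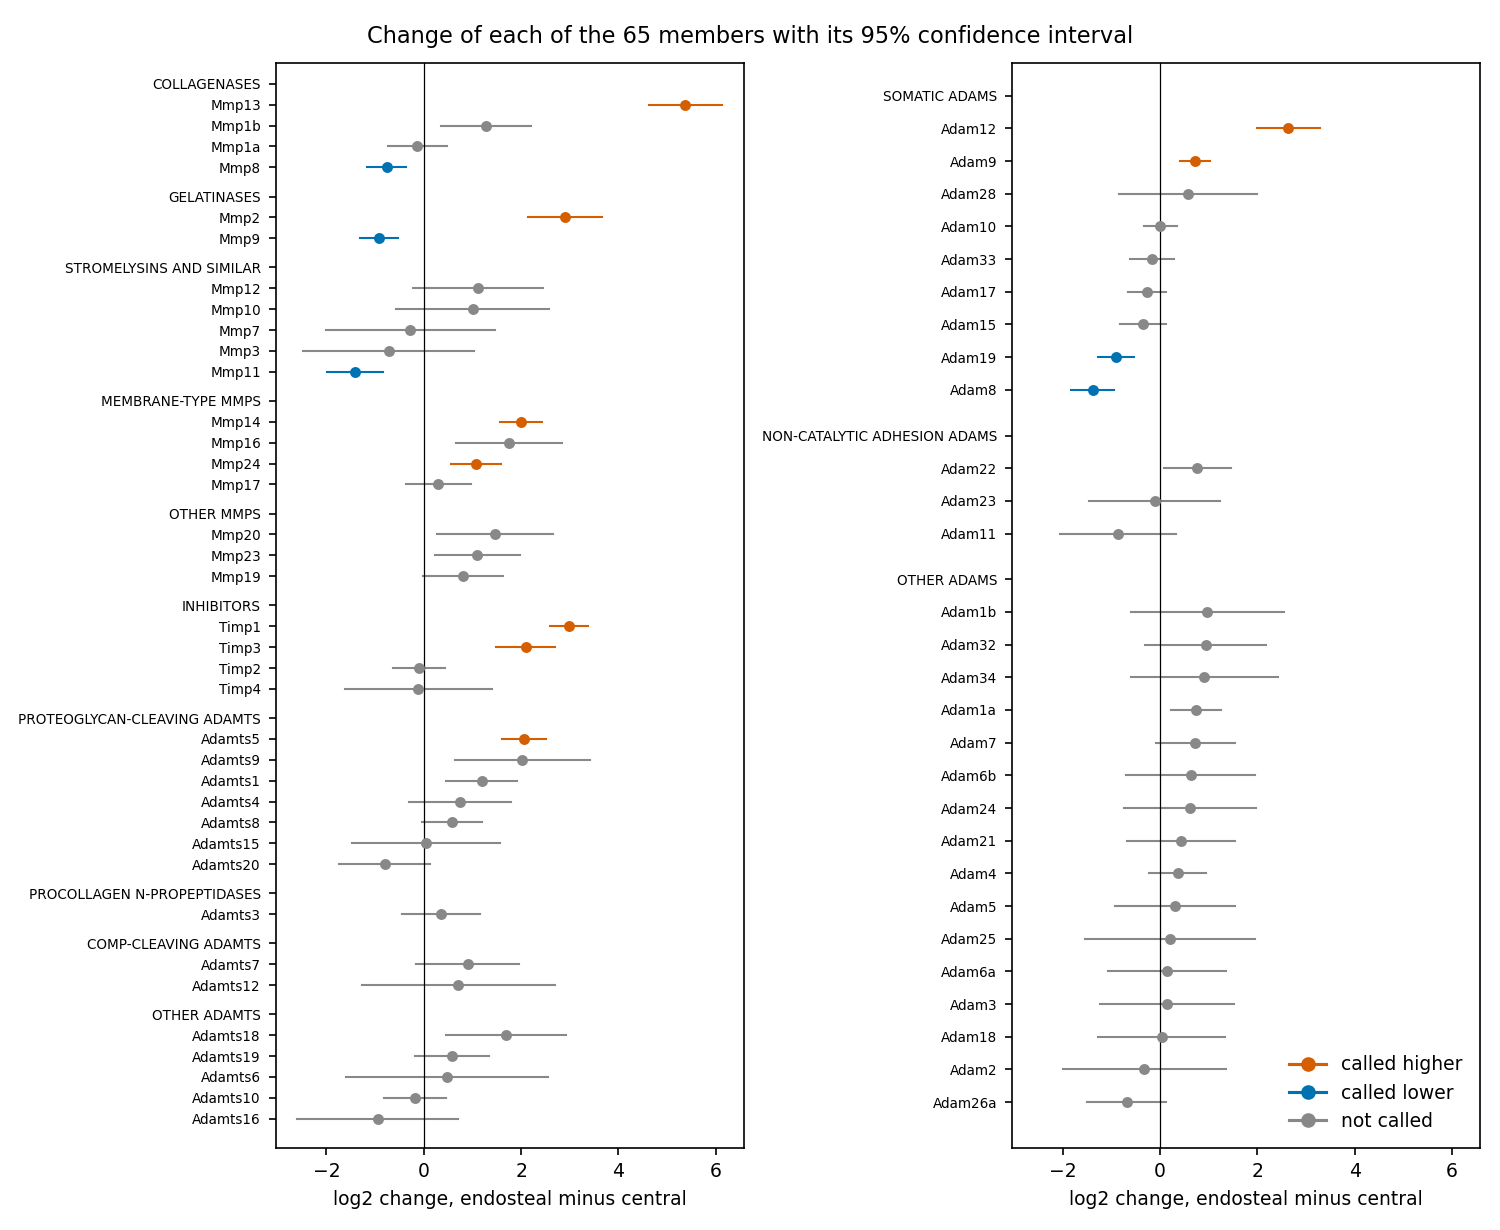
Change of each of the 65 genes on the log2(signal + 16) scale (horizontal axis, endosteal minus central) with its 95% confidence interval as a line, grouped by role and coloured by whether the gene was called. Called increases run from 0.73 for Adam9 to 5.38 for Mmp13, and called decreases from -0.77 for Mmp8 to -1.41 for Mmp11.

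In each of the 14 called genes the arrays of the regions did not overlap, as the plot of signals shows. A call from 3 arrays in each region favours such genes, so this adds no separate support. Both regions use the same letters for their arrays, and the regions came from the same 3 mice, although no label states that a letter stands for 1 mouse. With the letter as a block only Mmp13, Timp1 and Adam12 of the 65 genes were called, all 3 higher, and 0 were called lower. Over all genes that fit called 0.467% higher and 0% lower. The unadjusted p was under 0.05 for 18 of the 65 genes higher and 5 lower without the block, against 17.7% and 11.3% of all genes. With the block these counts were 20 higher and 5 lower, against 16.6% and 10.4% of all genes. The 5 lower are 7.69% of the 65, which is below the share of all genes in both fits. The blocked adjusted p of each called gene is given beside its change below.

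**Figure D2:**
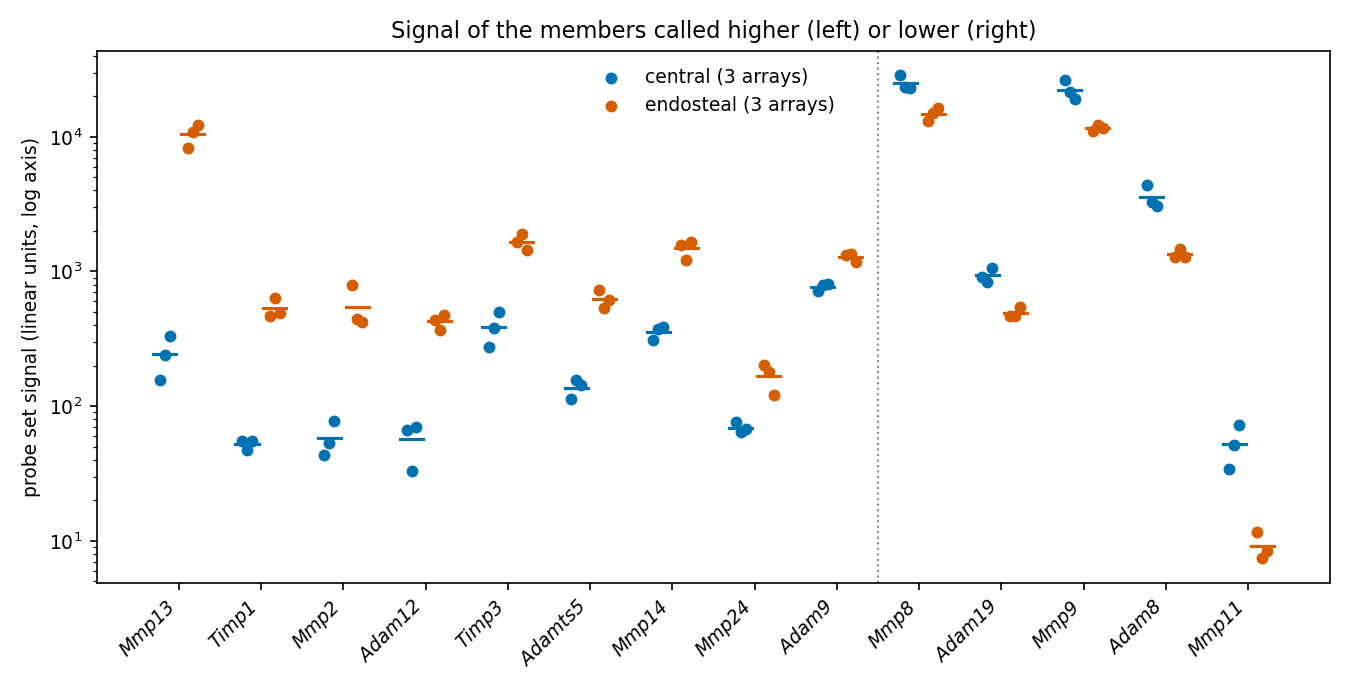
Probe set signal (vertical log axis, linear units) of the 14 called genes on the 3 central and 3 endosteal arrays, 1 point for each array and a bar at each mean. For Mmp13 the central points lie at 155 to 334 and the endosteal points at 8268 to 12315, and in none of the 14 genes do the regions overlap.

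The collagenases cut intact fibrillar collagen. Of 4 measured, 1 rose and 1 fell. Mmp13, collagenase-3, which is known from osteoblasts and hypertrophic cartilage, gave 155, 240.3 and 334 as its central signals and 8268, 10784 and 12315 as its endosteal signals, listed here and below in the order of the array letters. The lowest endosteal array was far above the highest central array. Mean signals were 243 ± 89.6 (SD, n = 3) and 10456 ± 2043 (SD, n = 3), and the change was 5.38 (SE 0.31, 95% interval 4.62 to 6.14, adjusted p = 0.00205), or 41.6-fold. With the letter as a block the adjusted p was 0.0208. Mmp13 had the largest change of the 65 genes and was called with each array left out in turn.

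Mmp8, collagenase-2, is known as the collagenase of neutrophil granules. Its signals were 28803, 23594 and 23174 on the central and 13002, 15000.3 and 16429.6 on the endosteal arrays. All 3 endosteal arrays were lower, and the change was -0.77 (SE 0.16, adjusted p = 0.0383). The call was the weakest of the 14: with the block the adjusted p was 0.121, and with any single array left out it was 0.0638 to 0.102. The rodent collagenase genes Mmp1a and Mmp1b lay near the low end of the array, with mean signals of 17.5 to 60 in both regions, and neither was called.

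The promoter windows of Mmp13 and Mmp8 are shown because these collagenases lie in 1 cluster on chromosome 9 and changed in opposite directions, and that of Timp1 because it is the inhibitor that rose most. Each is the RefSeq window of GRCm38.p6 from 250 bases before to 50 bases after the gene's start, printed 5′ to 3′ on the gene's own strand, which is the plus strand for all 3. The windows are chr9:7272264-7272563 for Mmp13, chr9:7558179-7558478 for Mmp8 and chrX:20869916-20870215 for Timp1. Capitals mark matches to the motifs searched.
Mmp13: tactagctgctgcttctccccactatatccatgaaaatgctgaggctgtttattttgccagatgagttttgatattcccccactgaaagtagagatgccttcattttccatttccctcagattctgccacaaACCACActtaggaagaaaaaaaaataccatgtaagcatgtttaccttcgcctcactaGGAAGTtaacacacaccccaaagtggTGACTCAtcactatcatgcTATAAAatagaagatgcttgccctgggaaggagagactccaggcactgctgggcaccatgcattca
Mmp8: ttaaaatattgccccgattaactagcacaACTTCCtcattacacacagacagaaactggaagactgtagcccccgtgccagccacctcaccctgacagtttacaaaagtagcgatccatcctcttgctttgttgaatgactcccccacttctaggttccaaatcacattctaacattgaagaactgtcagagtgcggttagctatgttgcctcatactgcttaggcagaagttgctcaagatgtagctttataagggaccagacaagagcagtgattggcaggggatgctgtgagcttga
Timp1: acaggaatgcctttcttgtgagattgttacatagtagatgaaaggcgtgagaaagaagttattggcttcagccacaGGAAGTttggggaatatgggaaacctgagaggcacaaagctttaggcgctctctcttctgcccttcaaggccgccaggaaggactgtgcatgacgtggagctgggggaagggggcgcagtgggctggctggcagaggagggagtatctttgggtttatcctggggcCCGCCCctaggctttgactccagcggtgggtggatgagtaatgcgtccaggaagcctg

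The letters searched were TGANTCA for AP-1, TGTGGT for RUNX, GGAAGT for ETS and GGGCGG for Sp1, each on both strands, and TATAAA for the TATA box on the gene's strand. The Mmp13 window held ACCACA, the reverse complement of the RUNX letters, 118 bases before the start, GGAAGT at 61, TGACTCA at 35 and TATAAA at 16. No other of these motifs was found in the Mmp8 window than ACTTCC, the reverse complement of the ETS letters, 221 bases before the start. The Timp1 window held GGAAGT at 174 bases before the start and CCGCCC, the reverse complement of the Sp1 letters, at 8. Over all 32851 windows of this length, AP-1 letters occurred in 7.81%, RUNX in 16.8%, ETS in 23.8%, Sp1 in 35.7% and TATA in 8.32%. These matches describe the letters and no binding was measured. Of the 65 genes 37 had a window in the table, and 9 of the 14 called genes had one.

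The cluster on chromosome 9 runs, in the order of the RefSeq gene table, Mmp13, Mmp12, Mmp1b, Mmp3, Mmp1a, Mmp10, Mmp8, Mmp27, Mmp20 and Mmp7. Mmp27 had no single-gene probe set here. Of the other 9 only Mmp13 rose and only Mmp8 fell. The neighbour of Mmp13, Mmp12 or macrophage metalloelastase, had endosteal signals of 66.7, 8.82 and 64.1 against 3.63, 20.1 and 6.94 on the central arrays, which overlap, and its change was 1.11 (SE 0.54, adjusted p = 0.241). The changes of Mmp1b, Mmp3, Mmp1a, Mmp10, Mmp20 and Mmp7 lay between -0.72 and 1.46 with adjusted p from 0.0858 to 0.833.

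**Figure D3:**
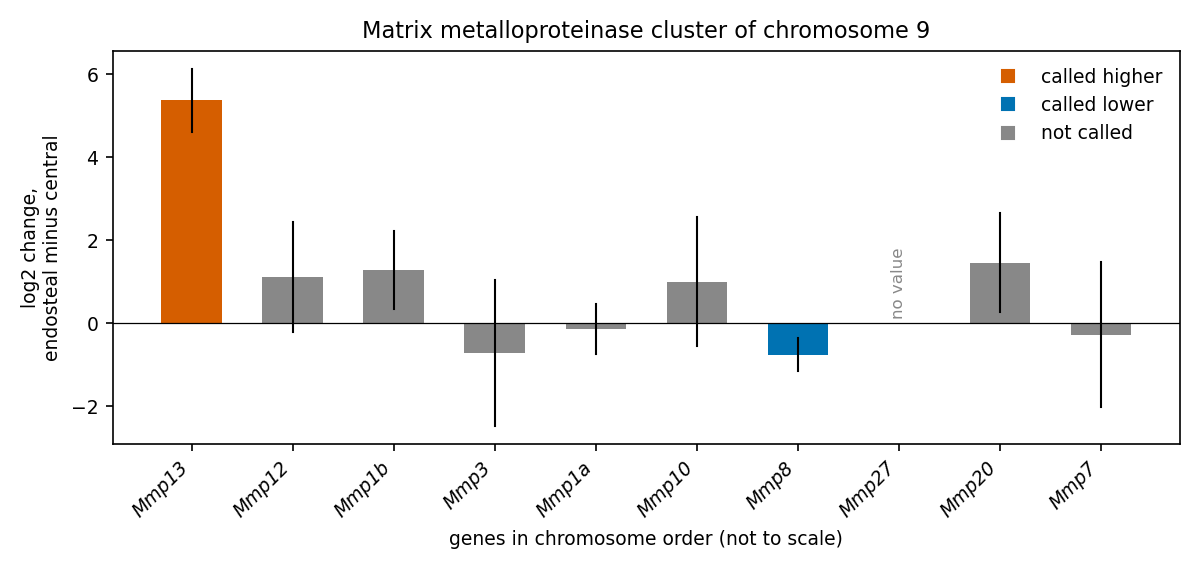
Change on the log2(signal + 16) scale (vertical axis, endosteal minus central) of the Mmp genes of chromosome 9 in chromosome order, with bars from 0 and 95% confidence intervals as lines. Mmp13 at one end stands at 5.38, Mmp8 at -0.77, and the 7 other measured genes were not called.

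The gelatinases cut denatured collagen and basement membrane collagen, and the pair changed in opposite directions. Mmp2, gelatinase A, which is known from stromal cells, had signals of 43.4, 53.5 and 77.4 on the central and 787, 441 and 420.5 on the endosteal arrays. Endosteal array A was the highest, and all 3 endosteal arrays were above the central ones. The change was 2.90 (SE 0.31, adjusted p = 0.00763), and the other probe set of the gene changed by 3.36. With the block the adjusted p was 0.0630.

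Mmp9, gelatinase B, which is known from neutrophil granules and osteoclasts, had signals of 26196, 21420.3 and 19083 on the central and 11061, 12185 and 11565 on the endosteal arrays. The endosteal arrays were close together and all lower. The change was -0.93 (SE 0.16, adjusted p = 0.0241), and the other probe set changed by -1.01. The call ended with the block (adjusted p = 0.0894) and in each fit with 1 array left out except that without central array C, with adjusted p from 0.0483 to 0.0818. On the same arrays 5 of 6 osteoclast markers were higher in endosteal RNA, with a summed signal of 1770 to 2486 on central and 23556 to 27487 on endosteal arrays. With the block 2 of the 6, Ctsk and Acp5, were still called, and the calls of the other 3 ended (adjusted p = 0.0535 to 0.0748).

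Membrane-type matrix metalloproteinases work at the cell surface, and 2 of 4 measured rose while 0 fell. Mmp14, which cuts fibrillar collagen and activates the Mmp2 precursor, had signals of 312, 377 and 386 on the central and 1562, 1217 and 1669 on the endosteal arrays. The regions were well apart, and the change was 1.99 (SE 0.18, adjusted p = 0.00520 and 0.0535 with the block). Its 2 other probe sets were both called higher, with changes of 2.48 and 1.69.

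Mmp24, best known from the nervous system, had signals of 76.2, 64.1 and 67.7 on the central and 201, 178 and 121 on the endosteal arrays. Endosteal array C was the lowest of its region but still above the central arrays. The change was 1.08 (SE 0.20, adjusted p = 0.0303 and 0.0811 with the block). Its 2 other probe sets changed by 0.27 and 0.35 and were not called, and the call was kept only without endosteal array C (adjusted p = 0.0237) when single arrays were left out. With quantile normalization the change was 0.64 (adjusted p = 0.106), and with the mean of its probe sets it was 0.56 (adjusted p = 0.339). An intensity trend in the fit ended the call too (adjusted p = 0.05004). Mmp16 had a change of 1.75 (SE 0.44, adjusted p = 0.0594), while another of its probe sets was called higher with a change of 2.25. Mmp17 had a change of 0.30 (SE 0.27, adjusted p = 0.518).

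Among the stromelysins, matrilysin and metalloelastase, which cut a broad range of matrix proteins, 0 of 5 rose and 1 fell. Mmp11, stromelysin-3, had signals of 33.9, 51.7 and 72.6 on the central and 11.7, 7.42 and 8.46 on the endosteal arrays. All endosteal signals were under 16, so the gene was near the low end of the array there. The change was -1.41 (SE 0.24, adjusted p = 0.0224), and its size depended on the pseudocount, ranging over the alternatives from -2.35 to -0.66. The call ended with the block (adjusted p = 0.0859) and in each fit with 1 array left out except that without central array A (adjusted p = 0.0305 to 0.0803). Of the other Mmp genes 3 were measured and 0 called. One of them, Mmp23, had a change of 1.10 (SE 0.35, adjusted p = 0.106), while its other probe set was called higher with a change of 2.42.

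Of the 4 inhibitors 2 rose and 0 fell. Timp1, the soluble inhibitor known for its induction in tissue repair, had signals of 55.2, 47.3 and 54.8 on the central and 469, 631 and 495 on the endosteal arrays. The spread within each region was small beside the gap. The change was 2.99 (SE 0.16, 95% interval 2.60 to 3.38, adjusted p = 0.00205 and 0.0478 with the block), or 7.94-fold.

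Timp3 stays bound to the matrix and inhibits ADAM and ADAMTS enzymes as well as matrix metalloproteinases. Its signals were 275, 378 and 499 on the central and 1649, 1899.8 and 1434 on the endosteal arrays, with no overlap. The change was 2.10 (SE 0.25, adjusted p = 0.0101 and 0.0633 with the block). Its 3 other probe sets were all called higher, with changes of 1.59, 1.87 and 2.18.

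Timp2, which besides its inhibitory role helps Mmp14 to activate Mmp2, had signals of 4751, 3025 and 2967 on the central and 3123, 3319 and 3361 on the endosteal arrays. Central array A was the highest of the 6, and the other central arrays were below the endosteal ones. The change was -0.10 (SE 0.22, 95% interval -0.63 to 0.44, adjusted p = 0.806). The 6 probe sets of Timp2 had changes from -0.10 to 1.66 and none was called, with adjusted p from 0.0690 to 0.901. The 95% interval was 0.25 to 0.99 for the probe set at 0.62. It was 0.67 to 2.64 for the dim one at 1.66, which had central signals of 7.34 to 20.6. The remaining probe sets changed by -0.08, 0.35 and 0.36, with intervals that included 0. Timp4 had signals of 15.9 to 123 on the 6 arrays, with a change of -0.11 (SE 0.61, adjusted p = 0.926), and its other probe set changed by 1.68 (adjusted p = 0.137).

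Mouse Timp1, Timp3 and Timp4 each lie inside a synapsin gene, a gene of synaptic vesicles, and the gene table gave Syn1 as the host of Timp1, Syn3 of Timp3 and Syn2 of Timp4. The hosts did not move with their inhibitors in a fixed way. Syn1 fell by 1.96 (SE 0.43, adjusted p = 0.0416) where Timp1 rose, and Syn2 rose by 1.28 (SE 0.24, adjusted p = 0.0303) where Timp4 was not called. Syn3 had a change of 0.86 (SE 0.27, adjusted p = 0.0970). None of these changes was called with the block, with adjusted p of 0.0837, 0.0919 and 0.154 for Syn1, Syn2 and Syn3. The synapsin genes were near the low end of the array in 1 of the regions. Endosteal signals of Syn1 were 63.4, 10.8 and 15.5. Central signals were 21.1 to 34.2 for Syn2 and 15.8 to 46.7 for Syn3.

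The ADAM genes active in somatic tissues numbered 9, of which 2 rose and 2 fell. Adam12, which takes part in the fusion and differentiation of myoblasts and other mesenchymal cells, had signals of 66.8, 33.1 and 70.1 on the central and 438, 365 and 476 on the endosteal arrays. The lowest endosteal array was above every central array by a wide margin. The change was 2.64 (SE 0.26, adjusted p = 0.00664 and 0.0478 with the block), or 6.24-fold, and the other probe set was called with a change of 2.21. Skeletal muscle markers were higher in the same arrays, as given above, and the part of muscle, bone or other cells in any of these increases was not tested.

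Adam9, a widely expressed sheddase, had signals of 721, 789 and 801 on the central and 1322, 1356 and 1177 on the endosteal arrays. The regions did not overlap, but the change was the smallest called increase, 0.73 (SE 0.13, adjusted p = 0.0248). The call ended with the block (adjusted p = 0.0938), with each array centred on its median (change 0.46, adjusted p = 0.0556), and in each fit with 1 array left out except that without endosteal array C (adjusted p = 0.0460 to 0.0852). Adam9 is the last of a run of ADAM genes on chromosome 8 that goes Adam18, Adam3, Adam5, Adam32, Adam9. The other 4, which are known from the testis, had changes of 0.04 to 0.94 and were not called.

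Adam19, a relative of Adam12 known from the developing heart and from leukocytes, had signals of 909, 838 and 1054 on the central and 466, 465 and 549 on the endosteal arrays. The endosteal arrays were all lower, and the change was -0.90 (SE 0.15, adjusted p = 0.0222). Its other probe set changed by -0.72 and was not called. The call ended with the block (adjusted p = 0.0693) and in each fit with 1 array left out except that without endosteal array C (adjusted p = 0.0411 to 0.0706).

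Adam8, a leukocyte ADAM first described in myeloid cells, had signals of 4353, 3280.4 and 3078 on the central and 1288, 1466 and 1282 on the endosteal arrays. Every endosteal array was below every central array by a wide margin. The change was -1.38 (SE 0.18, 95% interval -1.82 to -0.95, adjusted p = 0.0117 and 0.0668 with the block), or 2.61-fold lower. It was the only decrease that held in each fit with 1 array left out, with adjusted p from 0.0307 to 0.0467.

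The main ubiquitous sheddases were not called. Adam10, which cuts Notch receptors, had signals of 5246, 5995 and 6359.9 on the central and 5452, 6192 and 5996 on the endosteal arrays, which overlap throughout. Its change was 0.01 (SE 0.14, 95% interval -0.33 to 0.34, adjusted p = 0.983). Adam17, which releases tumour necrosis factor and growth factors of the EGF family, had signals of 1661, 1498 and 1405 on the central and 1178, 1145 and 1492 on the endosteal arrays. Its change was -0.26 (SE 0.16, 95% interval -0.65 to 0.13, adjusted p = 0.336). The 3 other probe sets of Adam10 had changes of 0.22, 0.32 and 0.68, and the 2 others of Adam17 had changes of -0.04 and 0.19, none of them called. The 95% interval of the Adam10 probe set at 0.68 ran from 0.05 to 1.31. Adam28, a lymphocyte ADAM, was near the low end of the array, with signals of 2.34 to 67.4 and a change of 0.58 (SE 0.57, adjusted p = 0.561).

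The ADAM genes that lack protease activity and act in adhesion, Adam11, Adam22 and Adam23, and the 16 ADAM genes of the reproductive tract and other tissues gave 0 calls. The changes of the 16 lay between -0.68 and 0.98. Across the whole set 33 of the 51 genes that were not called had a mean signal below 100 in both regions, so a difference in them could have been missed.

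The signals of Mmp8, Mmp9 and Adam8, which are known from neutrophils, fell in arrays on which 4 of 8 neutrophil markers rose and 1 fell without the block. Those that rose were the granule genes Ngp and Camp and the calcium-binding protein genes S100a8 and S100a9, and the one that fell was the chemokine receptor gene Cxcr2. All 5 of these marker calls ended with the block (adjusted p = 0.0826 to 0.120), as did those of Mmp8, Mmp9 and Adam8. The summed signal of the 8 markers was 321246 to 348214 on central and 497687 to 524956 on endosteal arrays. Ngp changed by 0.76 (SE 0.12), Camp by 0.53 (SE 0.11) and Cxcr2 by -1.45 (SE 0.29). The granule genes Elane, Mpo and Ltf had changes of 0.85, 0.56 and 0.13 without a call (adjusted p = 0.0638, 0.0699 and 0.516). Markers of B lymphocytes moved the other way, with 2 of 5 lower and a summed signal of 10197 to 16286 on central and 4018 to 7686 on endosteal arrays, and both calls ended with the block (adjusted p = 0.0521 and 0.0585). In RNA from a mixed tissue, fewer cells of a type and less RNA per cell cannot be told apart.

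**Figure D4:**
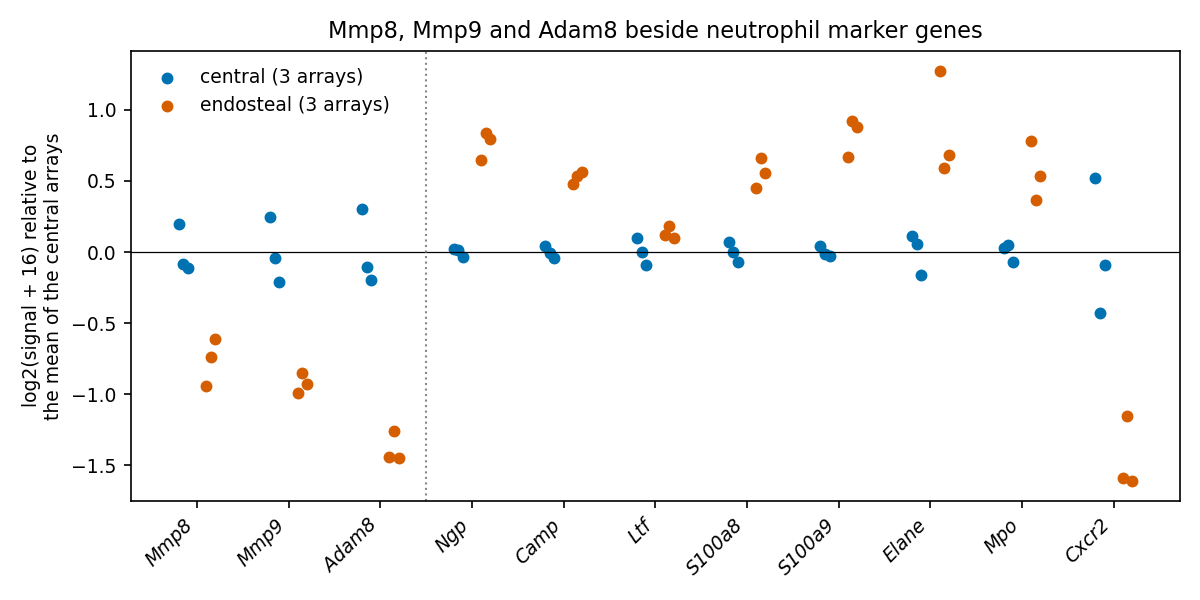
Log2(signal + 16) relative to the mean of the central arrays (vertical axis) for Mmp8, Mmp9 and Adam8 and, right of the dotted line, for 8 neutrophil markers, with 1 point for each of the 3 central and 3 endosteal arrays. The 3 metalloproteinase genes and Cxcr2 lie below 0 on all endosteal arrays, and the other 7 markers lie above 0.

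Of the 7 ADAMTS genes that cut aggrecan, versican and related proteoglycans, 1 rose and 0 fell. Adamts5, an aggrecanase of cartilage, had signals of 112, 157 and 144 on the central and 728, 538 and 611 on the endosteal arrays. The regions did not overlap, and the change was 2.06 (SE 0.18, adjusted p = 0.00523 and 0.0585 with the block). Of its 3 other probe sets 1 was called higher with a change of 1.78, and the others changed by 0.73 and 0.87. Of the 4 cartilage markers 1, Col2a1, was higher in endosteal RNA, with their summed signal at 93.4 to 134 on central and 1133 to 2505 on endosteal arrays. Col2a1 alone gave most of the endosteal sum, with signals of 1007 to 2009. Col10a1, Acan and Sox9 were not called (adjusted p = 0.104, 0.0652 and 0.550).

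The other aggrecanases and versicanases stayed short of the threshold in the fit used here. Adamts1 and Adamts9 passed it with a pseudocount of 64 and with an intensity trend in the fit. Adamts1, the neighbour of Adamts5 on chromosome 16, had signals of 77, 86.3 and 115 on the central and 261, 309.7 and 149.9 on the endosteal arrays, which do not overlap. Its change was 1.20 (SE 0.30, adjusted p = 0.0565 and 0.0320 without endosteal array C). Adamts9, the largest change among genes not called, had signals of 7.95, 86.4 and 58.6 on the central and 242, 163 and 252 on the endosteal arrays. Central array A was far below the other central arrays, and the change was 2.03 (SE 0.56, adjusted p = 0.0749). Another probe set of Adamts9 was called higher with a change of 2.03 (SE 0.22, adjusted p = 0.0104), and the last one changed by -0.01. Adamts4 had signals of 32.1 to 80.2 on the central and 58.8 to 165 on the endosteal arrays and a change of 0.75 (SE 0.42, adjusted p = 0.305).

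The remaining ADAMTS genes gave 0 calls. Adamts12, which cuts cartilage oligomeric matrix protein, had signals of 42.8, 4.11 and 66.3 on the central and 182, 20.2 and 43.6 on the endosteal arrays. Array B was the lowest of each region, and the change was 0.71 (SE 0.80, adjusted p = 0.612). Adamts3, the procollagen N-propeptidase measured here, had a change of 0.36 (SE 0.32, adjusted p = 0.519). Adamts13, the protease of von Willebrand factor, had no single-gene probe set here.

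More than 1 probe set was present for 30 of the 65 genes, and the results above use the one with the highest mean log2 signal. The 14 other probe sets of called genes all changed in the direction of the chosen one, and 9 of them were called in that direction. When all 116 probe sets of the 65 genes were tested in 1 fit over all single-gene probe sets, 20 were called higher and 5 lower, against 4.63% and 2.08% of all single-gene probe sets. In that fit Mmp8, which has 1 probe set, was not called (adjusted p = 0.0563). Adamts9, Mmp16 and Mmp23 were not called by the chosen probe set and had another that was called higher. Mmp24 and Adam19 were called by the chosen probe set alone.

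**Figure D5:**
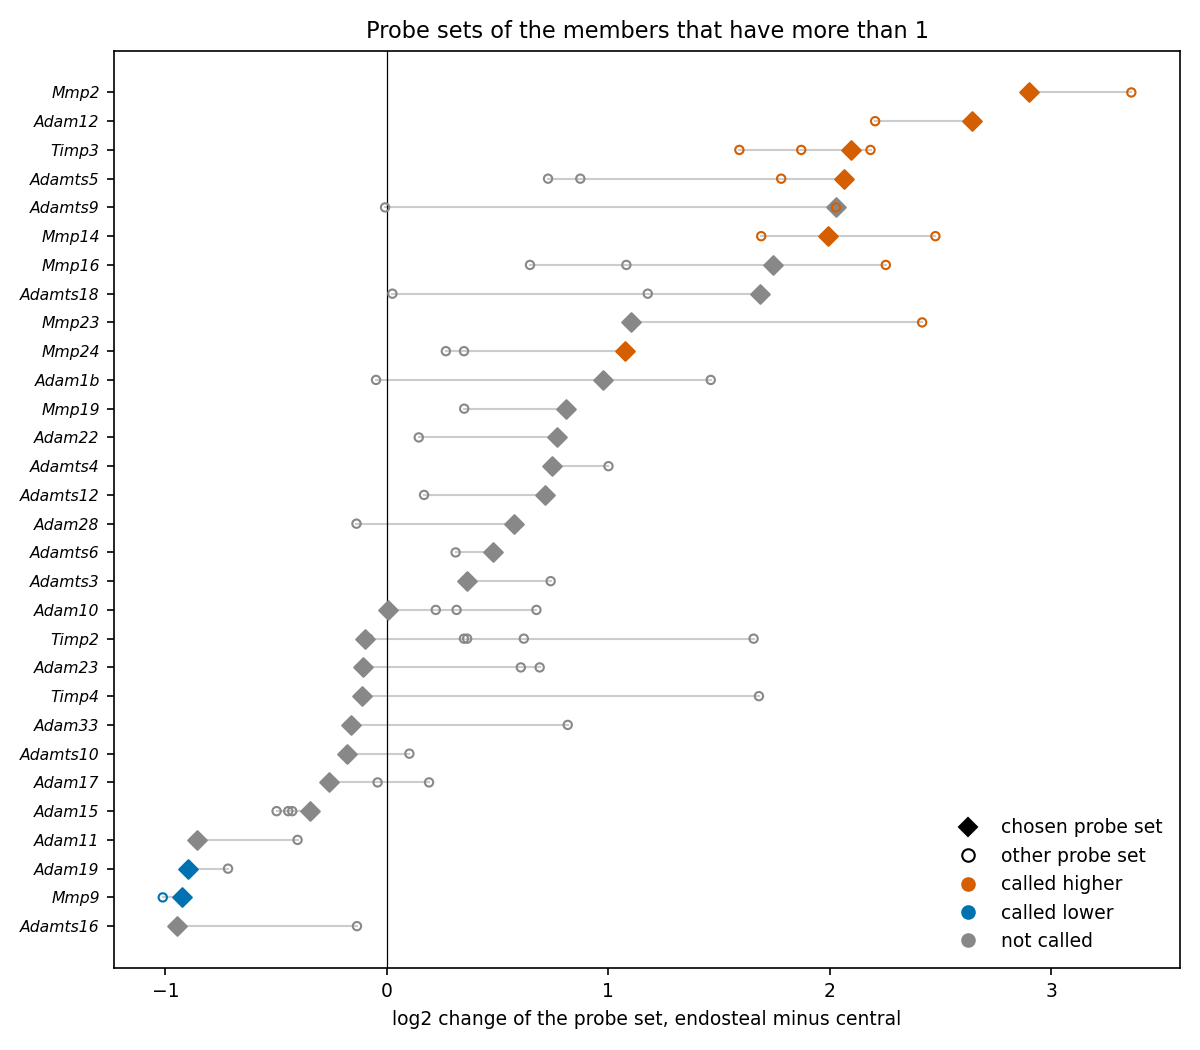
Change of each probe set on the log2(signal + 16) scale (horizontal axis, endosteal minus central) for the 30 genes with more than 1, with the chosen probe set as a diamond, others as circles, and colour showing the call in the fit over all probe sets. All 4 probe sets of Timp3 and all 3 of Mmp14 were called higher, whereas the 6 of Timp2 run from -0.10 to 1.66 with no call.

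A list of 30 genes was counted, of which 28 were measured. It holds genes that activate, anchor, inhibit or clear metalloproteinases, and some, such as Pcolce, that act on matrix cleavage in other ways. Of these 28 genes 6 rose and 1 fell, against 7.74% higher and 3.97% lower of all genes. Their median change was 0.08, beside 0.10 over all genes. Pcolce, the enhancer of procollagen C-propeptide cleavage, rose from 239 ± 46.6 to 2896 ± 511 (SD, n = 3), with a change of 3.51 (SE 0.20, adjusted p = 0.00205). The proprotein convertases Pcsk6 and Pcsk5, which cut precursors at basic sites, rose by 2.38 (SE 0.55) and 2.17 (SE 0.28). Also higher were the tissue plasminogen activator Plat by 2.03 (SE 0.38), the inactive rhomboid Rhbdf1, which guides Adam17 through the secretory pathway, by 1.69 (SE 0.15), and the protease trap A2m by 1.46 (SE 0.24). Central signals were low for Plat (5.12 to 18.2), Pcsk6 (7.79 to 88) and Pcsk5 (17.6 to 52.4). Spock3, a testican, fell by 1.39 (SE 0.18), with endosteal signals below 16. Furin, which activates Mmp14 and many ADAM precursors, had a change of -0.92 (SE 0.25, adjusted p = 0.0711). The membrane inhibitor Reck, with a change of -0.27 (SE 0.13), and the Adam10 partner Tspan33, with a change of -0.61 (SE 0.15), were not called either. With the block only Pcolce was called among the 28 (adjusted p = 0.0478), against 0.467% higher and 0% lower of all genes. The 6 calls that it ended had adjusted p of 0.0535 to 0.129. With single arrays left out 3 to 4 of the 28 were called higher and 0 to 2 lower. The shares of all genes in those fits were 2.76% to 4.89% and 0.489% to 1.63%. Quantile normalization left 3 called higher and 1 lower, against 5.49% and 4.56% of all genes. Centring each array on its median gave 6 and 4, against 5.17% and 10.9% of all genes.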

How the data were processed

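RNA of 3 central and 3 endosteal samples was hybridised to Affymetrix mouse arrays from 2 micrograms of total RNA, per the labels. The deposited values are the authors' probe set intensities on a linear scale, already scaled to a common mean. The software that summarised the probes is not given in the sources used here. Gene names came from the platform annotation and a RefSeq table of GRCm38.p6. Of 45101 probe sets 34945 named 1 gene, and 34741 of these were found in the table. Each gene was represented by its single-gene probe set with the highest mean of log2(signal + 16), which gave 18193 genes. Some genes are not reported here.

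The regions were tested against each other with limma (version 3.58.1, R 4.3.3, lmFit and eBayes, region as the only term, two-sided, Benjamini-Hochberg over all genes, threshold 0.05), and the procedure was tested on simulated data. Errors are SDs over 3 arrays, and SEs and intervals are those of the fit. Named genes are all called members and a list of 20 metalloproteinases and inhibitors. Others are named where their values stand out and were chosen after these were seen. The members, the regulator and marker lists and the rules were chosen with earlier results of these data known. After subtraction of the region means, the correlation between arrays sharing a letter was 0.05 (A), 0.04 (B) and 0.01 (C) across all genes, and 0.26, 0.13 and 0.10 among genes with a mean above the median. The regions share 3 mice, so blocked values are given where a block for the letter ends a call. Alternatives were pseudocounts of 1 and 64, quantile normalization, median centring, other ways to pick or average probe sets, a filter at the median level, the block, an intensity trend and each array left out.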

Additional observations from a re-analysis of the deposited data

How the results depend on the processing

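The 14 called metalloproteinase genes kept their direction under each of the 16 alternatives in which they were tested (9 of them under the filter at the median level). Most of these alternatives could not have reversed it. The arrays of these genes did not overlap, so neither a pseudocount nor leaving out 1 array can change the sign. The block, the intensity trend, the filter and the fit over all probe sets leave the change itself as it was. With the replicate letter as a block, the 9 calls higher and 5 lower became 3 and 0, and the regulator calls became 1 and 0. That fit called 0.467% of all genes higher and 0% lower. The calls that the block ended among osteoblast, muscle, osteoclast, neutrophil and B lymphocyte markers, and the synapsin genes, are given in the report. Without the block 2 of 4 tendon and fibroblast, 3 of 5 endothelial, 3 of 5 macrophage and 2 of 4 megakaryocyte markers were called, all higher. The block ended each of these calls, with adjusted p of 0.0535 to 0.0536, 0.0521 to 0.0994, 0.0521 to 0.0620 and 0.0671 to 0.0703. Of 3 measured erythroid markers 0 were called. Among genes above the median level only 15 metalloproteinases were tested, with 5 higher and 4 lower (17.5% and 18.9% of the 9096 genes in that fit), and the regulators gave 2 higher and 3 lower. Leaving out 1 array gave 7 to 11 metalloproteinases higher and 1 to 2 lower, against 2.76% to 4.89% and 0.489% to 1.63% of all genes, and 3 to 4 regulators higher and 0 to 2 lower. Calls were gained for Adamts18 without central array C, Mmp20 without endosteal array A, and Adamts1 and Mmp23 without endosteal array C. A pseudocount of 64 gained Adamts1, Adamts9 and Mmp16, with 10.1% of all genes called higher. The intensity trend gained the same genes and Adamts18, with 12.0% of all genes higher. The mean of all probe sets gained Mmp16 and Mmp23, with 6.11% of all genes higher. Quantile normalization moved the median change of all genes from 0.10 to -0.05 and gave 3 regulators higher, against 5.49% of all genes. Median centring moved it to -0.17. The regulators called lower were 4 with median centring, 4 with a pseudocount of 64 and 4 with the intensity trend. Of all genes 10.9%, 6.08% and 9.29% were called lower in those fits. The regulators called lower were 0 with the mean of all probe sets and 0 with the probe set of highest linear mean, a choice made after seeing the data. The shares of all genes there were 2.73% and 4.02%.

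Adam10, Timp2 and Timp4, which were not called, changed sign under some alternatives. Adam10 went from 0.01 to -0.26 with median centring and lay between -0.072 and 0.066 with 1 array left out. Timp2 went to 0.47 and Timp4 to 0.78 with the mean of all probe sets, and with 1 array left out they ranged from -0.21 to 0.12 and from -0.64 to 0.42. The cause was not tested. Signals below 16 on 15.9% to 20.1% of probe sets limit what can be said of dim genes.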
